A study of Mus musculus with 3 samples.

Results

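The bone morphogenetic protein (BMP) pathway was followed through 9 genes in mouse embryonic stem (ES) cells that lose Oct3/4, the transcription factor encoded by Pou5f1. The genes were the ligand gene Bmp4, the receptor gene Bmpr1a, the signal transducers Smad1 and Smad5, the inhibitor Smad7, and the target genes Id1, Id2, Id3 and Msx2. They were represented by every probe set, a group of short probes read together as 1 signal, that the array annotation gives to 1 of them alone. These were 22 of the 45037 probe sets, and 9 of the 18193 genes that have such a probe set. The rule uses no measured value, but the 9 genes were listed with earlier results of these arrays known.

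The samples were cells with a conditional Pou5f1 knockout, whose total RNA was profiled on 1 array per day, on day 0, on day 1 and on day 2. The allele was made conditional because ES cells that lack the gene for good are not maintained, and the question was how expression changes without it. All 3 samples carry the conditional allele, and the labels name no cells without it at any day. The sources used here do not say how the deletion was induced, or whether the cells were 1 clone or grew on feeders. Time in culture, any inducing treatment and the loss of Oct3/4 cannot be told apart. No day has a replicate, so no test was made, and the number of arrays limits how precise any value can be. Differences are in log2(signal + 55.9), where 55.9 is the 40th percentile of all signals, and a gene is called higher or lower when it is at least 2-fold apart on that scale. The only error the arrays give is the spread between probe sets of 1 gene. Its pooled SD was 0.34 when day 2 was set against day 0. It was 0.30 in the comparison of day 1 with day 0, and also 0.30 in that of day 2 with day 1. It leaves out the variation between cultures and hybridisations.

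BMP ligands bind paired receptor kinases on the cell surface, which phosphorylate SMAD1, SMAD5 and SMAD9. These enter the nucleus with SMAD4 and switch on target genes, among them the Id genes and the inhibitory SMADs, SMAD6 and SMAD7. Id proteins are helix-loop-helix proteins without a DNA-binding region, and they take up the E proteins that other factors of the family need as partners. In mouse ES cells, BMP4 given with the cytokine LIF supports self-renewal, in part through Id genes.

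The stretches before the transcription start are shown for the members at least 2-fold apart in any comparison for which the RefSeq promoter table of build GRCm38.p6 has an entry, since SMAD proteins act on such regions. Each is the 250 bases upstream of the start, read on the gene's own strand. Capitals mark GGCGCC, a GC-rich SMAD1 and SMAD5 motif, and CAGAC or its reverse complement GTCTG, the short SMAD4 motif. The POU octamer ATGCAAAT was searched as well, on both strands, and none of these motifs overlapped another. The stretches lie at chr14:46390670-46390919 on the minus strand for Bmp4, at chr12:25096093-25096342 on the minus strand for Id2, at chr4:136143572-136143821 on the plus strand for Id3 and at chr13:53472781-53473030 on the minus strand for Msx2.
Bmp4: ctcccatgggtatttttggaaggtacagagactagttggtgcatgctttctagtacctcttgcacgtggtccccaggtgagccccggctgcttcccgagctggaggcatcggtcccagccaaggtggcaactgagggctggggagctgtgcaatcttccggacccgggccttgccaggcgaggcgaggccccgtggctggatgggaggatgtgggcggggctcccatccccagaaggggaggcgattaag
Id2: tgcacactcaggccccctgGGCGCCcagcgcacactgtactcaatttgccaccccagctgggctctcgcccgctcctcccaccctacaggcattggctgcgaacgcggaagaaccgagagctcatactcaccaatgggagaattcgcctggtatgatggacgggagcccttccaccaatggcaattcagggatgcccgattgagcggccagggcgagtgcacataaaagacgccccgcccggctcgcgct
Id3: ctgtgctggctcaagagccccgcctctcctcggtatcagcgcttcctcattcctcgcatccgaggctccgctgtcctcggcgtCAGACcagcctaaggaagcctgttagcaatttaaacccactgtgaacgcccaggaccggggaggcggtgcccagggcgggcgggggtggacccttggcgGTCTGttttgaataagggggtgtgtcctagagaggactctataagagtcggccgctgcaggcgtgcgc
Msx2: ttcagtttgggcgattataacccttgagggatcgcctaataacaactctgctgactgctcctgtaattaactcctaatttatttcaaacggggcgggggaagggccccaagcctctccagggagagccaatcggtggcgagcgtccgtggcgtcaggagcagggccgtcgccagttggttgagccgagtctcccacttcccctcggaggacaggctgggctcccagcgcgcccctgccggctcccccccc
Id2 held 1 GGCGCC, which begins 231 bases before the start, and Id3 held 2 copies of the short SMAD4 motif, at 167 and 68 bases. Bmp4 and Msx2 held none of the 3 motifs in this window. Among all 32851 promoter windows of the same length, 9.59% held GGCGCC, 42.2% the short SMAD4 motif and 1.6% the octamer. Of the other members, the Bmpr1a window held 1 GGCGCC and the Smad1 window none of the motifs. Smad5 has 3 listed starts, of which 1 window held GGCGCC and another the short SMAD4 motif. A match is a string of letters and not a shown binding site.

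At day 0 all 8 ES cell markers were bright, and 2400, the signal of Pou5f1, was the lowest of them. The single probe set of Pou5f1 then gave 40.8 on day 1 and 15.5 on day 2. The sources used here do not name the deleted part, so this probe set may lie inside or outside it. The summed signal of these markers was 77538, 40516 and 11394 over the 3 days, and that of 10 trophectoderm markers was 10991, 16286 and 57727. Trophectoderm is the outer layer of the blastocyst, from which the placenta grows. Of 12 fibroblast markers, which feeder cells would bring, 8 were below 55.9 on average, Col1a1, Col3a1, Postn and Dcn among them. Their sum was 834, 773 and 665, of which Thy1 gave 400, 275 and 89.3. Of the 4 fibroblast markers measured at day 2 against day 0, 3 were above 0 and 1, Thy1, was lower. Of 5 mesoderm markers with a probe set 2 were below 55.9, and the sum was 432, 473 and 229. Primitive endoderm markers summed to 2295, 4459 and 5548, with 2 of 8 below it. Col4a1 gave much of that sum (1061, 2972 and 4073), and of the 6 measured at day 2 against day 0, 3 were higher and 1, Lama1, was lower. In such bulk RNA, fewer cells of a type and less RNA per cell cannot be told apart.

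At day 2 the 9 genes went separate ways. Msx2 and Id2 were at least 2-fold higher than at day 0, Bmp4 and Id1 at least 2-fold lower, and 5 genes stayed within 2-fold. Across all 12717 measured genes 5.25% were higher and 5.65% lower by the same rule, and the median difference was 0.05 both for the 9 genes and for all genes. At day 1, Msx2 was the 1 higher gene, and Bmp4, Id1 and Id3 were lower, where 2.4% of all genes were higher and 2.59% lower. Between day 1 and day 2, Id3 and Msx2 were higher and Bmp4 was lower, against 2.09% of all genes higher and 2.65% lower. The comparisons share arrays and are not independent of each other.

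**Figure D1:**
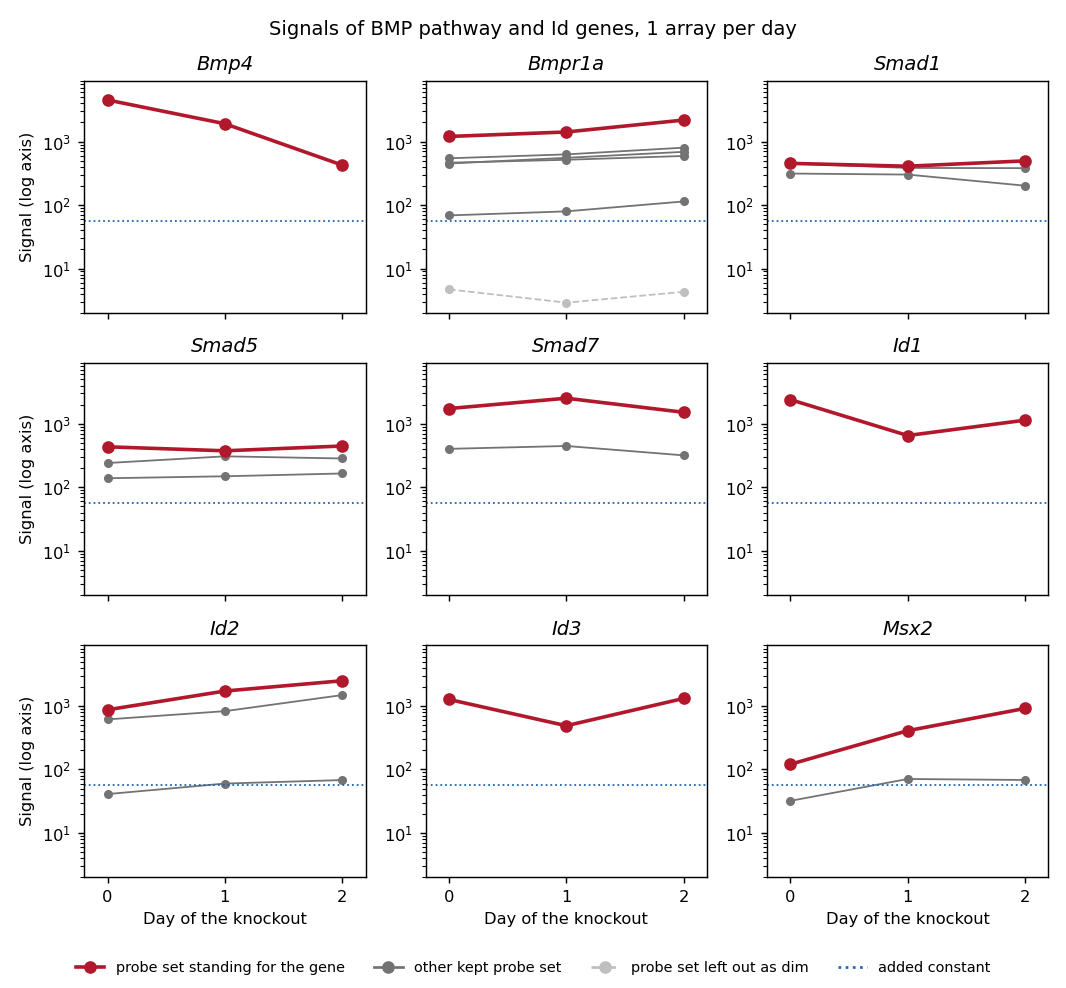
Signal of each probe set of the 9 genes (log axis) at day 0, day 1 and day 2, 1 array per day. Red lines are the probe set that stands for the gene, grey lines the others and the dotted line the constant of 55.9; in the red lines Bmp4 lies lower at each later day, Msx2 and Id2 higher, and Id1 and Id3 are lowest at day 1.

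Bmp4 encodes the ligand and had the largest difference of the 9 genes. Its single probe set gave 4526 at day 0, 1913 at day 1 and 427 at day 2. Day 2 was thus lowest and day 0 highest, and all 3 signals were well above 55.9. The difference in log2(signal + 55.9) was −3.25 for day 2 against day 0, which is 9.50-fold lower. Of all measured genes, 0.24% had a lower value in that comparison. The first day accounted for −1.22 and the second for −2.03, each beyond 2-fold. The 3 genes whose 2 differences from day 0 were nearest to those of Bmp4 were Fam25c, Etv5 and Klf2, at Euclidean distances of 0.11, 0.13 and 0.17 over the 3 arrays. Etv5 had signals of 6975, 2720 and 702, and Klf2 had 5034, 2232 and 541. Etv5 is an ETS transcription factor and Klf2 a Krüppel-like factor, both expressed in ES cells.

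Other BMP ligand genes were much less complete in the data. Of 13 listed, 10 had a probe set and 5 were measured, which means a mean signal of at least 55.9. Bmp8b was the 1 ligand of the 5 at least 2-fold higher at day 2, beside 5.25% of all genes. It had 136, 448 and 428 over the days. Its difference was 1.34 at day 2 and 1.39 at day 1 against day 0, and its other probe set gave 0.85 and 0.13. The mean of both was 0.76 at day 1. Bmp7, a ligand with wide roles in the embryo, had signals of 47.1, 166 and 108, with 1.11 at day 1 and 0.67 at day 2 against day 0. Its other kept probe set went the other way at both days, at −0.39 and −0.22, and the mean over both was 0.36 at day 1. With the constant at 112 its day 1 value was 0.81. The remaining 3, Bmp8a, Bmp10 and Gdf2, lay between −0.45 and 0.47 at day 1 and between −0.03 and 0.23 at day 2. Bmp2, Bmp5, Bmp6, Bmp15 and Gdf5 had a mean signal below 55.9 in every probe set.

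Bmpr1a encodes a BMP type I receptor, the kinase that passes the signal to the SMADs. Its brightest probe set had 1205 at day 0, 1417 at day 1 and 2184 at day 2, so that each day was above the one before. The difference for day 2 against day 0 was 0.83, or 1.78-fold, and 92.1% of all genes had a lower value. It is under the 2-fold rule but 2.41 times the SD between probe sets of a gene. All 5 kept probe sets of Bmpr1a were above 0 in each of the 3 comparisons, from 0.32 to 0.83 for day 2 against day 0. The difference at day 1 was 0.22, which is less than the SD between probe sets. The sixth probe set had signals of 4.70, 2.90 and 4.30 and was left out as dim.

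None of the other receptor genes passed 2-fold in its brightest probe set. All 9 listed receptors and co-receptors were measured, and 7 were above 0 at day 2 against day 0, with a median of 0.35. In that comparison 11331 of all 12717 measured genes stayed within 2-fold. Of all genes 6875 were above 0, with a median of 0.05. Bmpr2, the main BMP type II receptor, had 314, 436 and 550, a difference of 0.71 for day 2 against day 0, with 1.07 from its other probe set. Acvr2a was at 0.37 and Acvr2b at −0.19, both of them receptors shared with activin. The lowest was Eng, which encodes the co-receptor endoglin, at −0.88 (234 at day 2 and 478 at day 0). Its other probe set gave −1.05 at day 2, and at day 1 the 2 differed in sign, at −0.64 and 0.48.

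The SMADs that carry the BMP signal were nearly level. The brightest probe set of Smad1 had 454 at day 0, 410 at day 1 and 497 at day 2. Its difference was 0.12 at day 2 and −0.13 at day 1 against day 0, both within the SD between probe sets. The other 2 probe sets of Smad1 gave −0.21 and −0.52 for day 2 against day 0, so the probe sets did not share a sign. Smad5 had 434, 375 and 446, with 0.04 at day 2 and −0.18 at day 1. Its other probe sets gave 0.20 and 0.18 at day 2, and the 3 days were not apart beyond the probe error. Smad4, the common partner, was also level at 3411, 3321 and 3604. The activin-side SMADs were above day 0 at day 2, Smad3 at 0.87 and Smad2 at 0.69, though the other probe set of Smad2 gave −0.08. Smad9 was below 55.9.

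The inhibitory SMADs were highest at day 1. Smad7, which blocks receptors of both the BMP and the TGF-beta branch, had 1739 at day 0, 2527 at day 1 and 1517 at day 2. Its difference was 0.53 at day 1 against day 0, then −0.72 for day 2 against day 1, short of 2-fold in both. The second probe set had the same order of days with 0.13 and −0.43. Smad6, which is not among the 9 and acts mainly on the BMP branch, had 947, 2844 and 811. It was at least 2-fold higher at day 1 (1.53) and at least 2-fold lower at day 2 than at day 1 (−1.74), while day 2 against day 0 was −0.21. The day 1 array enters both values.

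**Figure D2:**
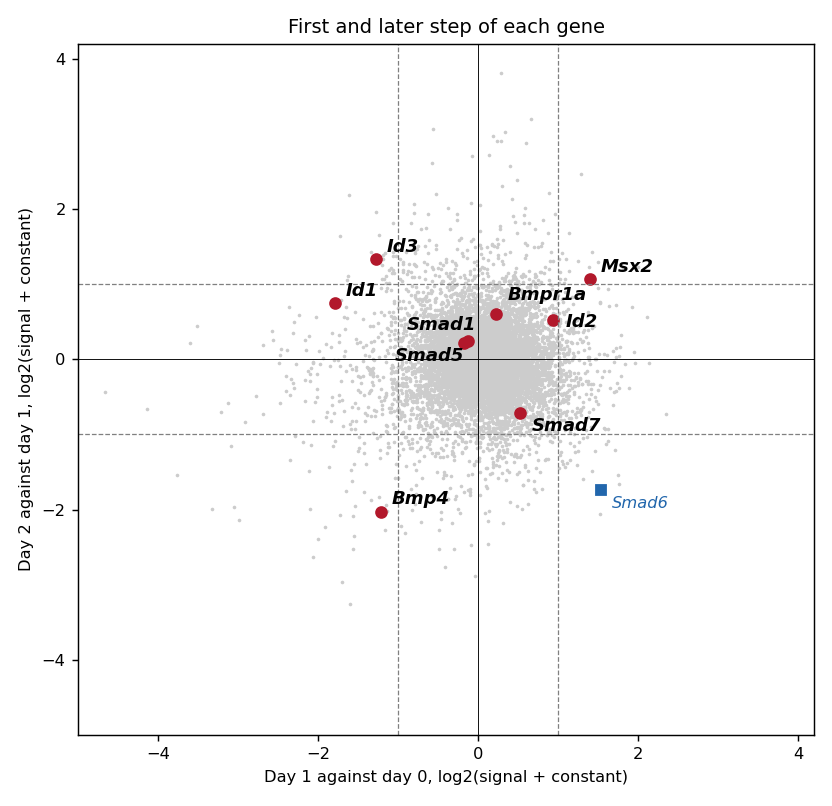
Difference in log2(signal + constant) for day 1 against day 0 (x axis) and day 2 against day 1 (y axis). Grey points are all measured genes, red points the 9 genes and the blue square Smad6; dashed lines mark 2-fold. Bmp4 is low on both axes, Msx2 high on both, Id3 and Id1 are low on the first and high on the second, and Smad6 is the reverse of these.

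Of the proteins that damp SMAD signalling inside the cell, Smad6 included, 8 of 8 were measured. At day 2, 1 was higher and 1 lower, beside 5.25% and 5.65% of all genes. Ski, a co-repressor that binds SMADs, was at 1.18 (2455 at day 2 and 1052 at day 0), with 0.67 from its other probe set and 0.93 as the mean of both. Skil, its relative SnoN, was at −1.18 (969 at day 2 and 2264 at day 0), with −1.12 from its other probe set. Skil was also lower at day 1, at −1.02, but at −0.79 as the mean of both probe sets, at −0.98 with the constant at 112 and at −0.995 after quantile normalisation. Ppm1a, a phosphatase of SMADs, was at −0.20, the ubiquitin ligase gene Smurf2 at 0.28 and Tob1 at −0.55. The 7 kept probe sets of Ppm1a lay between −0.99 and −0.01 for day 2 against day 0. Secreted antagonists were mostly dim, with 7 of the 11 that have a probe set below 55.9, Nog and Fst among them. Nbl1 was the 1 higher antagonist of the 4 measured at day 2, beside 5.25% of all genes. It was at 1.09 with 50.2, 11.4 and 170 over the days, and 2 of these signals lie below the constant. With the constant at 112 it was at 0.80. Twsg1, a modulator of BMP and chordin, was at 0.34, Chrd itself at 0.10 and Grem1 at −0.16.

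The 3 Id genes did not move together. Id1 had 2399 at day 0, 653 at day 1 and 1139 at day 2 in its single probe set. It was lowest at day 1 and stayed below day 0 at day 2. The difference was −1.79 at day 1, or 3.46-fold lower, and −1.04 at day 2, or 2.05-fold lower, both against day 0. At day 1, 0.59% of all genes had a lower value. Day 2 was above day 1 by 0.75, under 2-fold but 2.49 times the SD between probe sets. Only 4 genes lay within 0.25 of Id1 in the 2 differences. The nearest 3 were Stat4, Gfod1 and Cdh9, at 0.14, 0.14 and 0.15, and all of them had day 1 signals below 55.9, unlike Id1.

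Id3 shared the low point at day 1 and differed at day 2. Its single probe set had 1267 at day 0, 488 at day 1 and 1312 at day 2. Day 1 against day 0 was −1.28, or 2.43-fold lower, with 1.45% of all genes below it. Day 2 against day 1 was 1.33, or 2.51-fold higher, with 99.1% of all genes below it. The levels of day 2 and day 0 were within the probe error of each other, at 0.05. Id1 and Id3 each rest on 1 probe set, so neither value has a second measurement, and both are lowest on the same array. Whether another day 1 array would show this was not tested.

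Id2 was above day 0 at both later days, where Id1 was below it. Its brightest probe set had 871 at day 0, 1718 at day 1 and 2495 at day 2, each day above the one before. The difference was 1.46 at day 2, or 2.75-fold higher, and 0.94 at day 1, or 1.91-fold, both against day 0. A second bright probe set had 614, 828 and 1484, with 1.20 at day 2 and 0.40 at day 1. Both gave the same order of days, while the second placed more of the difference after day 1. The third, with 40.9, 59.9 and 68.0, was close to the constant and gave 0.36 at day 2. It is the only one whose name does not end in _a_at, the mark of probes shared by several transcripts of a gene. The 3 genes nearest to Id2 were Micall1, Tmem132e and Plxna2, at 0.02, 0.06 and 0.06, and 75 of 12717 genes lay within 0.25 of it, against 7 for Msx2. Id4, the fourth Id gene and not among the 9, was highest at day 1 in its brightest probe set, with 460, 936 and 550. Its differences there were 0.94 at day 1 and 0.23 at day 2 against day 0. Over its 3 kept probe sets they ran from 0.67 to 0.94 and from 0.23 to 0.69. Day 2 against day 1 ran from −0.71 to 0.003, so not every probe set had a clear high point at day 1.

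The E proteins, which Id proteins bind, stayed within 2-fold, as did 11331 of all 12717 genes at day 2 against day 0. Tcf4 had 587, 400 and 322, a difference of −0.77 for day 2 against day 0, with its 5 kept probe sets between −0.77 and −0.61. Tcf3 was at −0.43, and its 3 probe sets ranged from −0.59 to 0.03. Tcf12 was at 0.35, with up to 0.73 in another probe set.

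**Figure D3:**
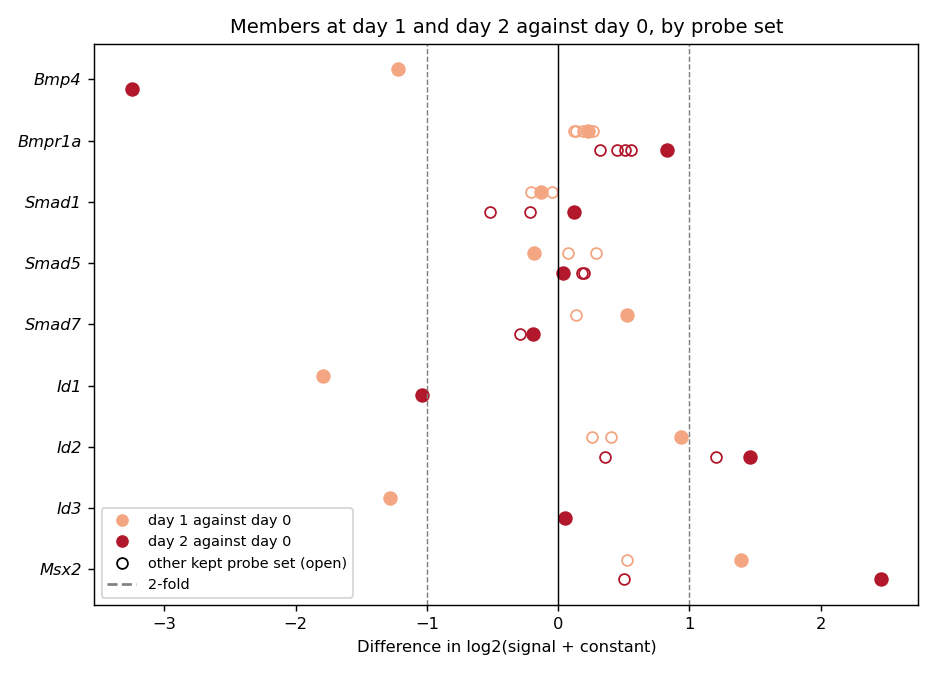
Difference in log2(signal + constant) against day 0 at day 1 (light) and at day 2 (dark) for every kept probe set of the 9 genes. Filled points are the probe set that stands for the gene and open points the others, with dashed lines at 2-fold. Bmp4, at −3.25, and Msx2, at 2.46, lie furthest out at day 2, while the second probe set of Msx2 lies at 0.50.

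Msx2, a homeobox gene switched on by BMP in many embryonic tissues, had the largest difference upward of the 9. Its brighter probe set had 121 at day 0, 408 at day 1 and 915 at day 2. Each day was above the one before, and all 3 signals were above 55.9. The difference was 2.46 at day 2, or 5.50-fold higher, and 1.39 at day 1, or 2.63-fold, against day 0, and 1.07 for day 2 against day 1. At day 2, 99.7% of all genes had a lower value. The other probe set was near background, at 32.0, 70.7 and 68.2, and gave 0.50 at day 2. With the mean of both, Msx2 was at 1.48 at day 2 against day 0, and under 2-fold at day 1 against day 0 (0.96) and at day 2 against day 1 (0.52). With the constant at 112, day 2 against day 1 was 0.98. The nearest genes were Fbxo21, Tmprss2 and Vnn1, at 0.09, 0.10 and 0.15.

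At day 2 against day 0, the brightest probe sets of other genes that BMP is known to switch on fell into 2 groups. They were either above 2-fold or within the SD between probe sets. The 10 listed were chosen with earlier results of these data known. Of the 10, 8 were measured, and 4 were at least 2-fold higher at day 2 and 0 lower, beside 5.25% and 5.65% of all genes. These were Gata3 (2.56, signals 54.7, 206 and 594), Dlx3 (2.08, signals 111, 114 and 647), Dusp9 (1.75, signals 3173, 8274 and 10837) and Gata2 (1.60, signals 273, 348 and 943). The other kept probe set gave 1.42 for Dlx3 and 3.03 for Gata2, so their order by size depends on the probe set. Gata3, Gata2 and Dlx3 are transcription factors of trophectoderm and its derivatives. Dusp9, a phosphatase that limits ERK signalling in ES cells, was already at 1.37 at day 1, and its 3 probe sets gave 1.75 to 2.09 at day 2. Gata3 was at 1.25 at day 1, or 0.93 with the constant at 112, while Dlx3 and Gata2 were at 0.03 and 0.30. Tbx3 was level at 2310, 2437 and 2180, and Msx1, the relative of Msx2, was near background with −0.23 at day 2.

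The summed trophectoderm markers were above day 0 at both later days, as were Msx2, Id2, Gata3 and Dusp9, and Gata3 is itself 1 of those markers. Dlx3 and Gata2 passed 2-fold at day 2, the day with the highest sum. Krt8 and Krt18, at 18359 and 24611, gave much of the sum of that day. Hand1 and Eomes were instead highest at day 1, and Eomes was at −0.32 for day 2 against day 0. Cdx2 had 152, 856 and 828, and its day 2 against day 1 value of −0.05 was within the SD between probe sets. Of the 9 trophectoderm markers measured, 8 were at least 2-fold higher at day 2 and 0 lower, and of the 8 ES cell markers 8 were lower. Their part in the BMP and Id results was not tested.

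**Figure D4:**
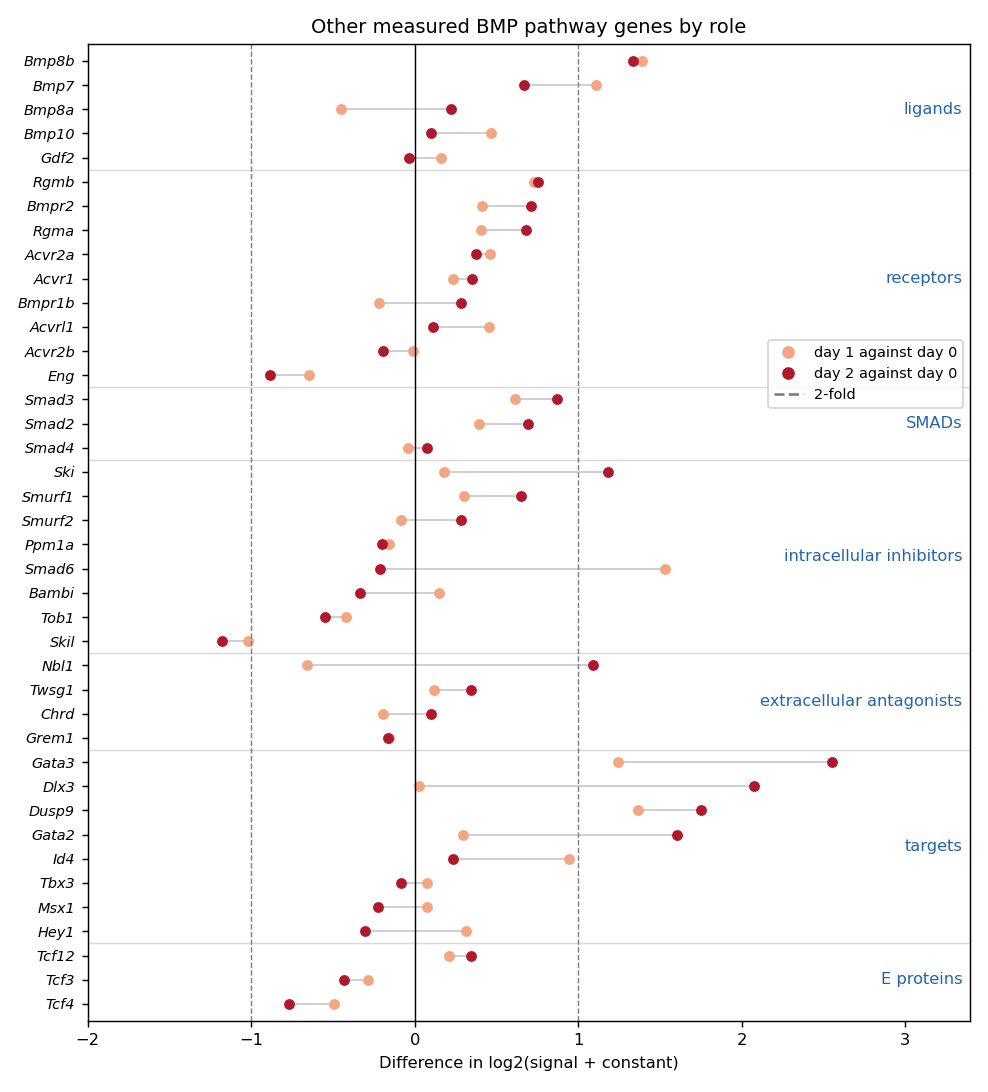
Difference in log2(signal + constant) against day 0 at day 1 (light) and day 2 (dark) for the 40 other BMP pathway genes measured, grouped by role and ordered by day 2. Dashed lines mark 2-fold; at day 2, 7 genes lie above it and 1, Skil, lies below.

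Over all roles, 59 other pathway genes were listed with earlier results of these data known, 55 had a probe set and 40 were measured. At day 2 against day 0, 7 were higher and 1 lower, where 5.25% of all genes were higher and 5.65% lower, and the median was 0.26 beside 0.05 for all genes. At day 1 against day 0, 5 were higher (Bmp7, Bmp8b, Smad6, Gata3 and Dusp9) and 1, Skil, was lower, where the shares of all genes were 2.4% and 2.59%. The median was 0.17 beside 0.04 for all genes. For day 2 against day 1, 4 were higher (Nbl1, Dlx3, Gata2 and Gata3) and 1, Smad6, was lower, where the shares were 2.09% and 2.65%. The median was 0.01 beside 0.002 for all genes.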

How the data were processed

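Total RNA of 3 samples was hybridised to 1 Affymetrix array per day. The values the authors deposited are linear array intensities, 1 signal per probe set, made with MAS5 per the submitters' processing notes, with no version given in the sources used here. Signals share a 2% trimmed mean of 498. The 64 control probe sets, which have values at day 2 only, were left out.

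Arrays were scaled to that common trimmed mean, and log2(signal + 55.9) was taken, which understates the change of dim genes. Probe sets with a mean signal of at least 55.9 were kept (26925 of 45037), 21 of the 22 members among them. The brightest kept probe set stands for its gene, giving 12717 genes. The platform annotation names 1 gene for 34945 probe sets and several for 932, and 9160 are unnamed here. Of those with 1 gene, 34741 matched the RefSeq table by Entrez identifier. Promoter windows were read for 7 of the 9 genes, and not for Id1, which has no entry, or for Smad7. Member entries on 1 chromosome were skipped, a cut that the 32851 windows of all genes did not have.

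With 1 array per day no test was possible. The steps were tested on simulated data (numpy 2.4.6, pandas 2.3.3). The members and gene lists were chosen with earlier results of these data known. Named are every member, Pou5f1, pathway genes past 2-fold in any comparison and up to 3 further bright genes per role, and the 3 genes nearest to each member past 2-fold at day 2. The text also gives Eng, chosen after its value was seen. The 9 alternatives changed the constant, the filter, the scaling and the choice of probe set.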

Additional observations from a re-analysis of the deposited data

How the results depend on the processing

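No paired analysis was possible because each day has 1 array, and no replicate could be left out. Across 27 differences of the 9 genes and the alternatives that gave a value, 231 of 240 values moved by less than the SD between probe sets, 9 moved by more, and 0 of the called ones changed sign. Only 129 of the 240 moved by over 0.001, since several alternatives leave a gene's probe set as it is. For Bmp4, Id1 and Id3, each with 1 probe set, 4 alternatives moved the value, the 2 constants, quantile normalisation and ribosomal medians. Under these Bmp4 stayed past 2-fold in each comparison (−3.38 to −3.11 for day 2 against day 0), as did Id3 at day 1 (−1.44 to −1.20) and after it (1.25 to 1.38). So did Id1 for day 2 against day 0 (−1.17 to −1.01), having no probe set once names ending in _a_at, _s_at or _x_at are dropped. Id2 for day 2 against day 0 was at 1.01 as the mean over probe sets and at 0.36 without those endings, where the remaining probe set is near the constant. Without those endings 1 member was higher and 1 lower at day 2 against day 0. With the constant doubled, and also with the mean over probe sets, 1 member was higher for day 2 against day 1, and with the mean 0 were higher at day 1 against day 0.

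Among the other pathway genes, day 1 against day 0 gave 3 higher with the constant doubled and 3 with the mean over probe sets. It gave 0 lower with the constant doubled, with quantile normalisation and with the mean. Day 2 against day 0 gave 2 lower with equal ribosomal protein medians. That scaling moved the median of all genes by −0.12 at day 2 and −0.15 at day 1 against day 0. Over all genes, the count higher at day 1 against day 0 was 146 with the constant doubled, 469 with it halved, 202 when the filter was the 60th percentile and 187 with ribosomal medians, against 305. For day 2 against day 1 the doubled constant gave 157 higher and 184 lower, against 266 and 337. Except where the probe sets left show it, the cause was not tested. Signals near 55.9, as in the dimmer probe sets of Id2 and Msx2, limit what these arrays show.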
